A study of Mus musculus with 4 samples.

Results

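Transcripts of the growth factor gene Igf1, of its receptor gene Igf1r and of the genes Igfbp1 to Igfbp7, which encode the secreted IGF-binding proteins, were followed in mouse osteosarcoma tumours with and without HIF-1alpha. These 9 genes were taken by symbol from a deposited table of 55487 genes, and all 9 were found once. HIF-1alpha knockout tumours came from 3 lines of AXT cells with the genotype HIF-1alpha KO (1-1, 1-2 and 2), and the control tumour came from Mock AXT cells with the genotype WT. Background knowledge of AXT, not stated in the labels, is that it was made from marrow stroma of Ink4a/Arf-deficient mice and carries an introduced c-MYC, which both groups would share. All cells were grown in IMDM, mixed with matrigel and injected into C57BL/6scid mice, whose severe combined immunodeficiency removes mature lymphocytes but leaves myeloid, vascular and connective tissue cells. Tumours were taken 1 day later. There were 3 knockout libraries, called c11, c15 and c22 in the table, and 1 mock library, each from poly(A) RNA of a whole tumour. The sources used here do not tie these columns to the named lines.

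IGF1 is a secreted peptide that binds the tyrosine kinase receptor encoded by Igf1r and so feeds the PI3K-AKT and MAP kinase pathways. In blood and matrix most IGF1 is held by IGF-binding proteins, which can block it from the receptor, carry it, or release it when proteases cut them. In bone, osteoblasts make IGFs and several of these binding proteins, IGFBP5 among them, and store them in the matrix. Hypoxia and HIF-1 are known from other cell types to raise Igfbp1 and Igfbp3 transcripts.

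Total counts were 12910058 in c11, 13193264 in c15, 13081007 in c22 and 12383719 in mock. Levels are given as CPM, counts scaled by the total count of the library. A count of 0 allowed at most 0.232, 0.227 and 0.229 CPM in libraries c11, c15 and c22 and 0.242 CPM in mock, taking 3 counts as the upper limit. Such limits and the 95% Poisson intervals below cover counting error only. Hif1a, the targeted gene, was at 104, 98.7 and 22.3 CPM in libraries c11, c15 and c22, against 107 CPM in mock, so its RNA was low in 1 knockout library only. Counts over a whole gene cannot tell an intact message from a disrupted one. All 11 osteoblast lineage markers were among the genes tested, which bears on the labelled cell type. Their summed level was 3265, 2412 and 6813 CPM in libraries c11, c15 and c22 and 2387 CPM in mock, most of it from collagen Col1a1 and Sparc. Bglap, the osteocalcin gene, was at 0 counts in c11 and at 0.227, 1.07 and 1.45 CPM in c15, c22 and mock.

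The comparison of knockout with mock asked how far this growth factor system depended on HIF-1alpha on the first day after implantation. Mean Igfbp3 CPM was 6.98-fold lower in the knockout libraries than in mock, and its fitted difference was the largest of the 7 tested members. Igf1r and Igfbp5 were lower in all 3 knockout libraries as well, by less and unevenly, while Igfbp4 and Igfbp7 were higher in all 3, each mainly in 1 library. None of these differences passed a test across all genes. Igf1 itself was close to the limit of detection, and Igfbp1 and Igfbp2 were at or under the limit.

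With edgeR's quasi-likelihood test across 15706 genes, 0 of the 7 members tested had an adjusted p under 0.05 in either direction, against a background of 0.00637% of genes called, which is 1 gene on the lower side and 0.00% on the higher side. DESeq2 called 0 members where it called 0.726% of all genes (0.306% higher and 0.420% lower), and limma-voom called 0 members and 0.00% of all genes. At an unadjusted edgeR p under 0.05 there was 1 member, Igfbp3, on the lower side, where 2.56% of all genes lay, and 0 on the higher side, where 1.12% lay. In CPM, 5 of the 7 members were below mock in all 3 knockout libraries, against 22.5% of all tested genes, and 2 were above mock in all 3, against 21.0%. All 7 tested members were thus on one side of mock, as were 43.4% of all tested genes. Some of these placings were within counting error. Igf1 had 16 counts in both c15 and mock, and Igfbp6 was at 10.2 CPM in c15 against 10.3 CPM in mock. The intervals of Igfbp4 in c22 and of Igfbp7 in c11 and c15 also overlapped those of mock. The members were chosen with earlier results of these data known, so nothing is read from these shares. The median log2 fold change (knockout minus mock) of the 7 was -0.58, beside 0.05 over all tested genes, and it was -0.96 without c15. The 3 knockout libraries are set against the same single mock library, so a count of libraries on one side of mock is not a count of independent results. The mock group had no replicate, so its spread was taken to equal that of the knockout lines. The labels do not name separate animals, and p-values cover only the spread between libraries. Every tested member reached the count filter in mock and in at least 2 knockout libraries, so none entered through 1 group alone.

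**Figure D1:**
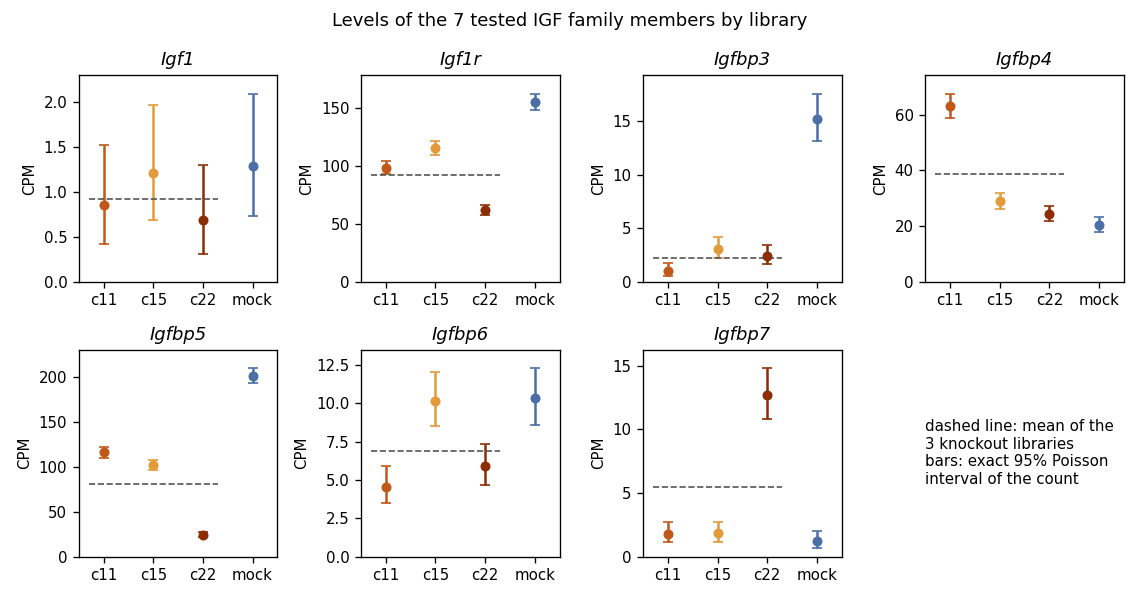
Level of each tested family member in CPM (vertical axis, from 0) in the knockout libraries c11, c15 and c22 and in mock. Points are single libraries, bars are exact 95% Poisson intervals of the count, and the dashed line is the mean of the 3 knockout libraries. Igfbp3 was at 3.11 CPM or less in every knockout library against 15.3 CPM in mock, while Igfbp7 was high in c22 alone.

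The ligand gene Igf1 (chromosome 10, 87858265 to 87937042, GRCm38, plus strand) had 11, 16 and 9 counts in c11, c15 and c22 and 16 counts in mock. Those are levels of 0.85, 1.21 and 0.69 CPM in the knockout libraries and 1.29 CPM in mock. The Poisson intervals overlapped: that of mock began at 0.739 CPM, and that of c22, the lowest library, ran from 0.315 to 1.31 CPM. The fit gave a log2 fold change of -0.48 (SE 0.77, adjusted p = 1.00 in edgeR), so a difference was not detectable at this depth. Among the tested genes, 9.90% had a lower mean level. The other ligand gene, Igf2, and the insulin gene Ins2 had 0 counts in every library. Macrophages and fibroblasts are known sources of IGF1, and all 10 macrophage markers were tested. The summed level of those markers was 247, 336 and 433 CPM in libraries c11, c15 and c22 against 803 CPM in mock. Of the 10, 9 were below mock in all 3 knockout libraries, against 22.5% of all tested genes. None passed edgeR's adjusted p of 0.05, and the 3 libraries share 1 mock library. In bulk tumours, fewer cells of a type and less RNA per cell cannot be told apart. The part of these cells in the Igf1 level was not tested.

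Igf1r (chromosome 7, 67952827 to 68233668, plus strand), the receptor gene, was well expressed, with a mean level above that of 86.6% of tested genes. Its level was 98.5, 115 and 61.6 CPM in libraries c11, c15 and c22 and 155 CPM in mock. All 3 knockout libraries lay below mock, c22 the farthest. The knockout mean was 91.7 ± 27.4 CPM (SD, n = 3), with a fitted log2 fold change of -0.76 (SE 0.40, adjusted p = 1.00 in edgeR). The log2 ratio to mock, with 0.5 CPM added to each level, was -0.65 in c11, -0.43 in c15 and -1.33 in c22. Any relation of the Igf1r level to the Hif1a RNA level was not tested.

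The binding protein gene Igfbp3 (chromosome 11, 7206086 to 7213923, minus strand) encodes the main IGF carrier of blood, which can also act on cells without IGF. It had 13, 41 and 32 counts in c11, c15 and c22 and 189 counts in mock. Levels were 1.01, 3.11 and 2.45 CPM in the knockout libraries and 15.3 CPM in mock. All 3 knockout libraries lay below the 1 mock library, a pattern found in 22.5% of all tested genes. The highest upper bound of a knockout library, 4.22 CPM in c15, was below the lower bound of mock, 13.2 CPM. The knockout mean was 2.19 ± 1.07 CPM (SD, n = 3). The fit gave a log2 fold change of -2.79 (SE 0.60, unadjusted p = 0.00405, adjusted p = 0.464 in edgeR), which missed the threshold. By unadjusted p the gene ranked 136 of 15706. Over 10 other settings it ran from -3.13 to -2.44, with adjusted p from 0.183 with DESeq2 to 1.00 without c11. Each knockout library taken alone gave a log2 ratio to mock, on the same scale with 0.5 CPM added, of -3.39 (c11), -2.13 (c15) or -2.42 (c22).

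Its direct neighbour Igfbp1 (chromosome 11, 7197782 to 7202546, plus strand), a binding protein made mostly by liver, had 0 counts in all 4 libraries. The genes lie tail to tail with 3539 bases and no other gene of the table between them. The other adjacent pair of the family, Igfbp2 (chromosome 1, 72824503 to 72852474, plus strand) and Igfbp5 (chromosome 1, 72857932 to 72874884, minus strand), was split in the same way. Igfbp2, a binding protein gene of fetal tissues and many tumours, had 1, 2 and 1 counts in c11, c15 and c22 and 0 in mock, all under the limit of 3 counts, while Igfbp5, 5457 bases away, was the highest binding protein gene in mock.

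Igfbp5, the binding protein most linked to bone matrix, was at 116, 101 and 24.5 CPM in libraries c11, c15 and c22 and at 201 CPM in mock. All knockout libraries lay below mock, c22 far below the other two. The knockout mean was 80.6 ± 49.1 CPM (SD, n = 3), with a fitted log2 fold change of -1.32 (SE 0.74, adjusted p = 1.00 in edgeR). The knockout libraries differed among themselves by 4.73-fold, and a range of at least 4-fold was found in 13.9% of tested genes.

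Igfbp4 (chromosome 11, 99041244 to 99054392, plus strand) encodes a binding protein that restrains IGF until the protease PAPP-A cuts it. Its level was 63.1, 28.9 and 24.5 CPM in libraries c11, c15 and c22 and 20.4 CPM in mock. The Poisson intervals of c22 (21.9 to 27.3 CPM) and mock (18.0 to 23.1 CPM) overlapped, while c11 stood well above both. The fit gave a log2 fold change of 0.92 (SE 0.63, adjusted p = 1.00 in edgeR), and it was 0.40 without c11. Igfbp6 (chromosome 15, 102144362 to 102149511, plus strand), whose product prefers IGF2, was at 4.57, 10.2 and 5.89 CPM in libraries c11, c15 and c22 and at 10.3 CPM in mock. Its level in c15 was within counting error of mock, and c11 and c22 were lower. The fit gave a log2 fold change of -0.58 (SE 0.59, adjusted p = 1.00 in edgeR), -0.35 without c11 and -0.98 without c15.

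Igfbp7 (chromosome 5, 77349240 to 77408041, minus strand) encodes a low-affinity relative of the family that is abundant in vessel walls. It had 23, 24 and 166 counts in c11, c15 and c22 and 15 counts in mock, which are 1.78, 1.82 and 12.7 CPM in the knockout libraries and 1.21 CPM in mock. The intervals of c11, c15 and mock overlapped, and c22 alone was high. The fit gave a log2 fold change of 2.17 (SE 1.62, adjusted p = 1.00 in edgeR) and 0.56 without c22. Of 9 endothelial markers, 3 had 0 counts in every knockout library (Tie1, Emcn and Cldn5). In mock these had 0, 1 and 2 counts, also under the limit of 3 counts, and they were not tested. The summed level of the 9 was 14.9, 11.2 and 8.56 CPM in libraries c11, c15 and c22 and 17.0 CPM in mock. Most of each sum was Egfl7, at 13.01, 8.79 and 6.96 CPM in the knockout libraries and 12.4 CPM in mock, while Pecam1 had 0, 3 and 7 counts in c11, c15 and c22 and 5 in mock. The summed level of 8 fibroblast markers was 31.0, 120 and 107 CPM in libraries c11, c15 and c22 and 143 CPM in mock. Pdgfra, 1 of the 8, was at 5.42, 6.97 and 63.8 CPM in the knockout libraries and 15.2 CPM in mock. The other 7 summed to 25.6, 113 and 43.4 CPM in the knockout libraries and 128 CPM in mock, and all 7 were below mock in c22. The part of vessel and fibroblast cells in the Igfbp7 level was not tested. Exons of Igfbp7 and Polr2b, on opposite strands, share 85 bases. The sources used here do not say whether counting used strand. Polr2b had 2206, 2145 and 2019 counts in c11, c15 and c22 and 2248 in mock.

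**Figure D2:**
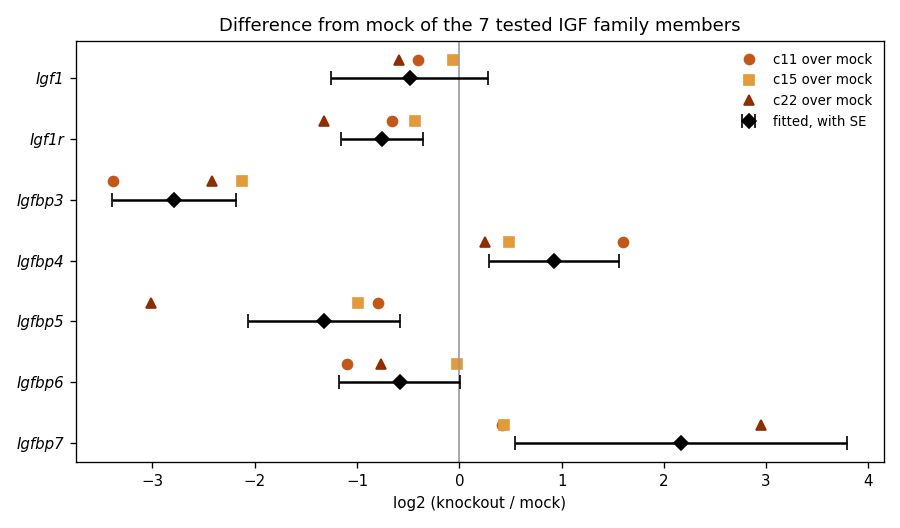
Difference from mock on a log2 scale (horizontal axis) for the 7 tested members. Coloured symbols are the ratios of c11, c15 and c22 to mock, with 0.5 CPM added to each, and black diamonds with bars are the fitted log2 fold changes with their SE. The ratios of Igfbp3 lie between -3.39 and -2.13, while those of Igfbp5 and Igfbp7 are spread by 1 library, c22.

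To set the genes against each other, levels were divided by exon length, giving CPM per kilobase of exon. In mock the order per length was Igfbp5 (33.5), Igfbp6 (9.30), Igf1r (9.24), Igfbp3 (4.88), Igfbp4 (4.63), Igfbp7 (1.00) and Igf1 (0.13). In the knockout libraries the order of mean levels per length was Igfbp5 (13.4 ± 8.18, SD, n = 3), Igfbp4 (8.79 ± 4.79), Igfbp6 (6.18 ± 2.63), Igf1r (5.46 ± 1.63), Igfbp7 (4.49 ± 5.20), Igfbp3 (0.70 ± 0.34) and Igf1 (0.093 ± 0.027). From Igfbp5 down to Igfbp3, each gene differed from its neighbour in that order by less than the larger SD of the pair. The order of these mean levels is therefore not resolved by that measure. Igfbp3 was below each gene ahead of it in every knockout library. The receptor transcript exceeded the Igf1 transcript per length by 68.2-, 56.0- and 52.8-fold in c11, c15 and c22 and by 70.8-fold in mock.

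The 7 binding protein genes together reached 39.5, 35.1 and 26.2 CPM per kilobase in c11, c15 and c22, against 53.3 in mock. Their make-up differed more than their sum. Igfbp5 gave 48.8%, 48.1% and 15.5% of that sum in c11, c15 and c22 and 62.9% in mock. Igfbp4 gave 36.2%, 18.6% and 21.1% in the knockout libraries and 8.68% in mock. Igfbp3 gave 0.814%, 2.83% and 2.98% in the knockout libraries and 9.15% in mock. Igfbp7 gave 40.0% of the sum in c22, where it was the largest share, 3.73% in c11, 4.28% in c15 and 1.88% in mock. In CPM the ratio of Igfbp5 to Igfbp4 was 1.83, 3.51 and 1.00 in c11, c15 and c22 and 9.85 in mock. Igfbp5 was below mock and Igfbp4 above mock in every knockout library. The ratio could therefore only be below mock there, and it adds no separate result. These shares were not tested.

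**Figure D3:**
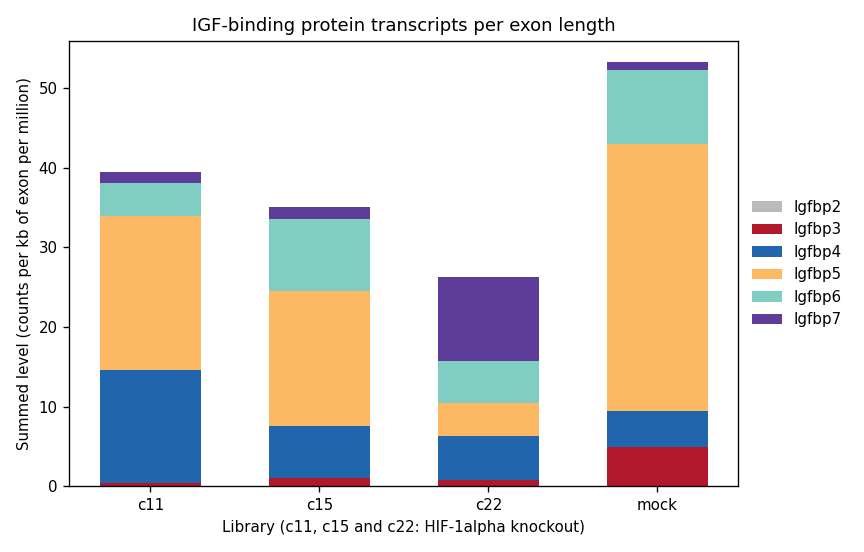
Summed level per exon length of the binding protein transcripts in CPM per kilobase of exon (vertical axis, from 0) in c11, c15, c22 and mock, with 1 colour for each gene. Igfbp1 is absent from the bars because it had 0 counts. The sum was 26.2 to 39.5 in the knockout libraries and 53.3 in mock, and Igfbp5 took the largest share in c11, c15 and mock.

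The promoters of the 3 members with the largest fitted differences, Igfbp3, Igfbp7 and Igfbp5, are shown because HIF-1 acts through short hypoxia response elements near its target genes. The 250 bases before the RefSeq transcription start (GRCm38.p6) are given 5′ to 3′ on the strand of the gene, with each element core in capitals. The core was searched as ACGTG or GCGTG on both strands, so that CACGT and CACGC are matches on the opposite strand. Igfbp3 is at chr11:7213924-7214173, Igfbp7 at chr5:77408046-77408295 and Igfbp5 at chr1:72874866-72875115, all on the minus strand.
Igfbp3: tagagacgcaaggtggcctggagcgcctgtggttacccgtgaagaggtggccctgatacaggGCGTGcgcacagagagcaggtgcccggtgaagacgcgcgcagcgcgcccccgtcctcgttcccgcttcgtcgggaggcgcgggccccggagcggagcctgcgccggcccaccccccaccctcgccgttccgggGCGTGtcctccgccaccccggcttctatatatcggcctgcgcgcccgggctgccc
Igfbp7: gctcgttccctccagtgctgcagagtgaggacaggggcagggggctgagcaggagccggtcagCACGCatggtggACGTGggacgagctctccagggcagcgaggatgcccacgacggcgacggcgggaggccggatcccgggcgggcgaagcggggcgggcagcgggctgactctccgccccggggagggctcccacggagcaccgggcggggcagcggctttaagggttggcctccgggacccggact
Igfbp5: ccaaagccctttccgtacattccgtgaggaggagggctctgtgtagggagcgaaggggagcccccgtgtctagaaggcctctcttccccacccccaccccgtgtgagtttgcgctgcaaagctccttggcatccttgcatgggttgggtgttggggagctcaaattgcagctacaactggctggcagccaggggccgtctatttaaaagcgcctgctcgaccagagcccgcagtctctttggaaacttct
Igfbp3 held 2 cores, both GCGTG on the strand of the gene, beginning 188 and 55 bases before the start. Igfbp7 held 2 cores, beginning 187 bases (opposite strand) and 175 bases before the start, and Igfbp5 held none. Over the family, 6 of 10 RefSeq promoters (9 genes, Igfbp2 with more than 1) held a core, and so did 38.6% of 32851 promoters of the same length. Of the promoters with a core, those of Igfbp1 and Igfbp2 belonged to genes at or under the detection limit in every library. The Igfbp3 window was richer in GC (73.2%) than the median promoter (52.4%), and the core itself contains the dinucleotide CG. A match to a core is a description of the letters and does not show binding.

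Other genes of the pathway were taken from 8 lists, and 69 of 83 genes were tested. None passed edgeR's adjusted p of 0.05 in either direction, where 0.00637% of all genes did, and DESeq2 called 0, against 0.726% of all genes. At an unadjusted edgeR p under 0.05 there was 1 gene on the higher side, where 1.12% of all genes lay. On the lower side there were 2, where 2.56% of all genes lay. Both counts are near those shares. The median log2 fold change was 0.07, beside 0.05 over all tested genes. Of 68 with a mean of at least 1 CPM, 6 had a log2 fold change of 1 or higher with all 3 knockout libraries above mock, where 4.11% of all such genes lay, and 2 had -1 or lower with all 3 below mock, where 4.46% lay. Of the 6, Lrp2 and Ccn5 were under the count filter of 0.769 CPM in mock and so were tested through their knockout libraries alone, as was Pappa among the other pathway genes. These counts served to choose genes to name, and nothing is read from them. The 6 and 2 genes so chosen and the 2 highest of each list are described.

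Among receptors and clearance proteins, 7 of 8 genes were tested and 0 passed (median log2 fold change -0.07). Igf2r, which carries IGF2 to lysosomes, was at 237, 99.3 and 317 CPM in libraries c11, c15 and c22 and at 144 CPM in mock. Lrp1, an endocytic receptor that also binds IGFBP3, was at 242, 196 and 291 CPM against 293 CPM in mock. Lrp2, the endocytic receptor megalin, was at 5.73, 1.36 and 0.23 CPM in libraries c11, c15 and c22 and had 0 counts in mock. The mean of its knockout libraries was at least 10.1-fold higher than the limit of 3 counts in mock, and c22 was itself at 3 counts. That bound rests on c11, and without c11 it was 3.29-fold. Because Lrp2 was tested through its knockout libraries alone, nothing is read from its direction.

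In the growth hormone axis, which induces Igf1 in liver, 8 of 8 genes were tested and 0 passed (median 0.28). Jak2, the kinase of the growth hormone receptor, was at 26.4, 25.0 and 21.0 CPM in libraries c11, c15 and c22 and at 63.2 CPM in mock. All 3 knockout libraries lay below the 1 mock library, a pattern found in 22.5% of all tested genes. The fitted log2 fold change was -1.39 (SE 0.32, adjusted p = 0.515 in edgeR). The feedback inhibitor genes Socs2 and Cish, targets of STAT5, were above mock in all 3 knockout libraries, as were 21.0% of all tested genes. Socs2 was at 8.99, 10.1 and 13.4 CPM against 5.09 CPM in mock, and Cish was at 4.18, 2.27 and 3.82 CPM against 1.29 CPM in mock. Stat5b itself was at 56.6, 68.2 and 44.5 CPM against 48.0 CPM in mock.

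Proteases that cut binding proteins, and their inhibitors, showed no shared direction. Of 11 genes 7 were tested, and of those 7, 0 passed and 0 had all 3 knockout libraries on one side of mock. Their median was 0.64, and it was 0.12 without c11 and 0.21 without c22. Mmp14, a membrane metalloprotease, was at 318, 91.4 and 198 CPM in libraries c11, c15 and c22 and at 114 CPM in mock, and the lysosomal protease gene Ctsd was at 169, 100.1 and 263 CPM against 109 CPM in mock. Pappa, the gene of the protease that cuts IGFBP4, was at 0.077 and 0.985 CPM in c11 and c15, had 0 counts in c22 and was at 0.565 CPM in mock. The PAPP-A inhibitor gene Stc2 was at 39.7, 51.8 and 46.6 CPM against 45.9 CPM in mock. Stc1, of the same list, had 0, 1 and 0 counts in c11, c15 and c22 and 9 in mock. It was under the count filter and was not tested.

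Receptor substrates and adaptors (13 of 15 tested, median 0.01) and PI3K, AKT and FOXO genes (25 of 26 tested, median 0.07) stayed without a call. The scaffold gene Rack1 was at 2197, 1997 and 2311 CPM in libraries c11, c15 and c22 and at 2459 CPM in mock, and the phosphatase gene Ptpn11 was at 280, 229 and 191 CPM against 195 CPM in mock. Akt1 was at 279, 377 and 330 CPM against 324 CPM in mock, and Gsk3b, a kinase inhibited by AKT, was at 256, 104 and 247 CPM against 149 CPM in mock. Pik3r3, a regulatory subunit gene of PI3K, had the largest fitted change among the tested genes of these lists. It was at 13.9, 5.68 and 12.9 CPM in libraries c11, c15 and c22 and at 1.78 CPM in mock, with a fitted log2 fold change of 2.61 (SE 0.84, unadjusted p = 0.0223, edgeR adjusted p = 1.00).

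Of the 3 genes for proteins that bind Igf2 mRNA, 0 passed. Igf2bp2 was at 321, 285 and 334 CPM in libraries c11, c15 and c22 and at 420 CPM in mock, and Igf2bp3 was at 85.1, 99.1 and 32.0 CPM against 88.5 CPM in mock. Igf2bp1 was at 1.08, 12.96 and 45.7 CPM against 0.89 CPM in mock, high mainly in c22. Among 8 genes for proteins with an IGFBP-like domain, 6 were tested and 0 passed. Ccn3 was at 2.17, 4.32 and 0.76 CPM in libraries c11, c15 and c22 and at 14.9 CPM in mock (log2 fold change -2.61, SE 0.73, edgeR adjusted p = 0.778). Ccn5, tested through its knockout libraries alone, was at 1.78, 1.29 and 3.59 CPM against 0.32 CPM in mock. The matricellular genes Ccn1 and Ccn4 were the highest of the list, Ccn1 at 145, 345 and 100.1 CPM against 232 CPM in mock and Ccn4 at 131, 72.0 and 58.9 CPM against 79.9 CPM in mock. In the list of ligand relatives 0 of 4 genes were tested, and Igfals, whose product stabilises IGF-IGFBP3 complexes in blood, had at most 1 count in a library.

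**Figure D4:**
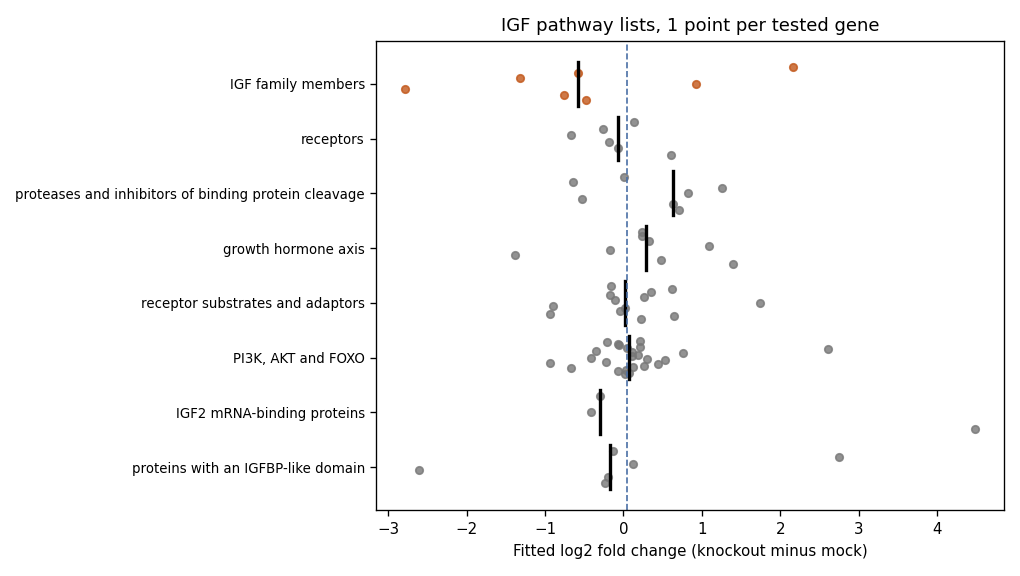
Fitted log2 fold change, knockout minus mock (horizontal axis), with 1 point for each tested gene of the family (top row) and of 7 pathway lists. Black bars are list medians and the dashed line is the median of all tested genes, 0.05. Lrp2 is not drawn because it had 0 counts in mock. List medians lie between -0.30 and 0.64, and that of the family is -0.58.

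The genes whose pattern over the 4 libraries was nearest to that of a member were found by Euclidean distance between centred log2(CPM + 0.5) profiles, among 10217 genes with a mean of at least 5 CPM. Nearest to Igf1r were Rlf (distance 0.071), Ankrd49 (0.111) and Ppp1r9a (0.121). Rlf was at 42.4, 50.2 and 28.2 CPM in libraries c11, c15 and c22 and at 69.0 CPM in mock. Nearest to Igfbp5, the member with the highest mean level in CPM, were Scara3 (0.217), Mob3b (0.417) and Pde5a (0.526). Scara3 was at 18.1, 12.7 and 3.13 CPM in libraries c11, c15 and c22 and at 27.9 CPM in mock. Nearest to Igf1 were Tut1 (0.036), Abl2 (0.041) and Zfp7 (0.042), but with a pseudocount of 2 none of these 3 was among the nearest 3, while 2 of 3 stayed for Igf1r and for Igfbp5. Profiles over 4 libraries share few points, and these lists are descriptions.

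Markers of some other cell types differed between the groups beside these values. All 8 skeletal muscle markers were below mock in the 3 knockout libraries, against 22.5% of all tested genes. None of them passed edgeR's adjusted p of 0.05. Their summed level was 5.58, 1.29 and 24.8 CPM in libraries c11, c15 and c22 and 128 CPM in mock. Erythroid markers summed to 1.63, 4.24 and 41.1 CPM against 116 CPM in mock. Neutrophil markers, with Mpo at 0 counts in every library, did not follow the groups and summed to 4.65, 14.6 and 16.5 CPM against 10.2 CPM in mock. Adipocyte markers reached at most 0.387 CPM in sum in the knockout libraries and 0.646 CPM in mock. The part of host cells in the family's levels was not tested.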

How the data were processed

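RNA was poly(A)-selected and the libraries kept strand information, per the labels' protocols. The deposited table holds raw counts for each Ensembl gene in 4 library columns. The submitters' processing notes name the authors' tools as featureCounts 1.6.3, SAMtools 1.9, HISAT2 2.1.0, Trimmomatic 0.38 and FastQC 0.11.7, with GRCm38 as the build. No source used here gives their strand or multi-mapping settings. The filter filterByExpr kept 15706 of 55487 genes (99.9% of counts). TMM scaling and the robust quasi-likelihood test of edgeR 4.0.16 (R 4.3.3, 2-sided) followed, with Benjamini-Hochberg adjustment over all tested genes and a threshold of 0.05. SEs come from the F statistic. The fit had 2 residual and 3.77 prior degrees of freedom and a coefficient of variation of 0.442. DESeq2 1.42.0 and limma 3.58.1 served as alternatives. Pairs of libraries differed by a chi-square per gene of 48.3 to 90.3, far beyond sampling noise. Exon lengths and overlaps came from GENCODE M21, whose spans equal those of the table for the 9 members. Promoters came from RefSeq (GRCm38.p6), matched by symbol for all 9.

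The members and lists were chosen with earlier results of these data known. Named pathway genes were those with a mean of at least 1 CPM, all 3 knockout libraries on one side of mock and a log2 fold change of at least 1 in size (up to 10 in each direction), and the 2 with the highest mean of each list. Pappa, Stc1, Stc2, Irs1, Irs2, Foxo3, Mmp2, Igf2 relatives and marker genes named singly were outside that rule and were chosen after their values were seen.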

Additional observations from a re-analysis of the deposited data

How the results depend on the processing

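The 7 fitted member values kept their direction and stayed without a call in all 70 refits: scaling by DESeq2 size factors or upper quartile, no filter, a mean of at least 1 CPM, DESeq2, limma-voom, each knockout library left out in turn, and the earlier form of the quasi-likelihood fit, which was added after the data were seen. Calls over all genes depended on the tool. DESeq2 called 48 genes higher and 66 lower where edgeR called 0 and 1, no filter gave 4 lower, and limma-voom and the earlier form gave 0 lower. Leaving out c11, c15 or c22 gave 0 to 0 genes lower. Members and pathway genes were called 0 times under every setting. The mock library could not be left out. With the longer core ACGTGC or GCGTGC, 5 of 10 member promoters held a match, and so did 13.6% of all promoters. The 5 included those of Igfbp1 and Igfbp2, genes at or under the detection limit. The others were Igf1r, Igfbp3 and Igfbp7, with 77.6%, 73.2% and 74.0% GC against a median of 52.4%. The difference in share was not tested, and a match does not show binding. No paired analysis was possible because the mock group has 1 library and no number in the labels links libraries. Depth limits Igf1, Igfbp1 and Igfbp2.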

Other observations

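The insulin receptor substrate genes, singled out after their values were seen, differed between knockout lines. Irs1, the main docking protein gene of the IGF1 receptor in many cells, was at 95.4, 72.2 and 36.0 CPM in libraries c11, c15 and c22 and at 126 CPM in mock (log2 fold change -0.90, SE 0.51). Irs2 was at 6.43, 0.985 and 10.4 CPM in libraries c11, c15 and c22 and at 1.78 CPM in mock (log2 fold change 1.74, SE 1.33). Irs1 was lowest and Irs2 highest in c22, where Igf1r was also lowest, at 61.6 CPM. Any relation of Irs1 and Irs2 to the Igf1r level was not tested. Neither Irs1 nor Irs2 passed edgeR's test over all genes.

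Foxo3 and Mmp2 were likewise singled out after their values were seen. Foxo3, a transcription factor gene restrained by AKT, was at 69.9, 65.0 and 66.4 CPM in libraries c11, c15 and c22 and at 107 CPM in mock, with a knockout SD of 2.54 CPM (n = 3). Its fitted log2 fold change was -0.67 (SE 0.28), and it did not pass. Mmp2, a gelatinase gene, was at 91.9, 13.8 and 7.42 CPM in libraries c11, c15 and c22 and at 15.7 CPM in mock. It was highest in c11, the library where Igfbp4 was also highest (63.1 CPM in c11 and 20.4 CPM in mock). Any relation between the Mmp2 and Igfbp4 levels was not tested.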
